A study of Homo sapiens with 9 samples.

Results

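HSF1, the master transcription factor of the heat shock response, was followed here together with 9 genes of the chaperone system, HSPA1A, HSPA1B, HSPA8, HSPD1, HSPH1, HSPB1, HSP90AA1, DNAJB1 and BAG3. These 10 genes were taken by name from the 59453 gene names of the count table, by a list of names that uses no measured value but was drawn up with earlier results of these data known, and all 10 were among the 16556 genes that passed the expression filter. RNA-Seq had been performed on MDA-MB-231, an established human triple-negative breast cancer line, in 3 groups of 3 libraries. One group was untreated, and the others had received TEPA, a polyamine that chelates copper, for 8 h or for 24 h. All 9 libraries came from this line grown in serum-containing medium, and the 3 untreated libraries served as the comparator of both time points. The sample labels give 8 mM TEPA, whereas the RNA sequencing methods of the study state a lower concentration, and the time at which the untreated cells were harvested is not given in the sources used here. Time under TEPA and time in culture therefore cannot be told apart. Neither source says whether the replicates came from separate cultures, so p-values measure only the spread between these libraries.

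In resting cells HSF1 is held inactive by chaperones of the HSP70 and HSP90 families. When unfolded proteins occupy these chaperones, HSF1 forms trimers, enters or stays in the nucleus, and binds heat shock elements, which are inverted repeats of the unit GAA, upstream of chaperone genes. Since this activation is a change of the protein, the HSF1 transcript itself need not change, and HSF1 is known in tumours for supporting cells with a high load of unstable proteins.

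Total counts per library ran from 34633755 to 49342659. The libraries had the markers of the labelled line, with 3674 CPM (counts scaled to a common library size) of VIM and 859 CPM of CD44 in untreated cells. KRT8 and KRT18 were at 405 and 301 CPM, and CDH1 and EPCAM at 0.624 and 1.13 CPM. Of the receptors that define a triple-negative line, ESR1 was at 0.155 and PGR at 0 CPM, whereas the ERBB2 transcript was at 81.4 CPM, so that its absence could not be read from these data. The markers of other cell types were low in untreated cells, with PTPRC at 0.0675, ALB at 0 and PECAM1 at 3.59 CPM. PECAM1 was at 1.06 CPM at 8 h and 8.13 CPM at 24 h, and ALB and PTPRC were at most 0.133 CPM in every library. Transcripts encoded in the mitochondrial genome took 1.79 to 2.91% of the counts in untreated libraries, 3.61 to 4.02% at 8 h and 1.89 to 2.02% at 24 h, and so were highest where most of the heat shock genes were highest. With these transcripts left out of the library sizes, the number of the 10 genes called in each direction was the same in every comparison. That refit bears on the scaling only and was no test of a difference in library quality between the groups.

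Heat shock elements were looked for upstream of the genes. The genes were chosen as HSF1 and heat shock genes, a class known for such elements. The counts that follow therefore describe this choice and are no independent result. In the 250 bases upstream of RefSeq transcription starts (GRCh38.p14), an exact heat shock element of 2 units, GAANNTTC or TTCNNGAA, was found for 7 of the 9 genes that matched the promoter table, against 11.9% of 11042 tested genes with a promoter in that table. An element of 3 units, GAANNTTCNNGAA or TTCNNGAANNTTC, which also holds 2-unit matches, was found for 3 of the 9 against 0.471% of the tested genes. Each pair of patterns covers both strands, and a match is a run of letters, not a measured binding site. HSPA8 (3-unit matches 230 and 55 bases upstream), HSPD1 (245 and 240 bases) and HSP90AA1 (88 bases) had 3 units, while HSPA1A, HSPA1B, HSPB1 and DNAJB1 had 2-unit matches only. The stretches around the matches of HSPA8 and HSPD1 overlapped an annotated exon. Distances are counted from the RefSeq start whose window held the match, which need not be the first annotated start of the gene. HSPH1 and BAG3 had none in these windows, and HSF1 did not match the table. The windows below are shown because they hold the matches of 5 of the genes outside any annotated exon, read 5′ to 3′ on the strand of the gene, with the matched elements in capitals. They lie at chr6:31815407-31815474 (plus strand) for HSPA1A, chr6:31827603-31827670 (plus) for HSPA1B, chr7:76302461-76302528 (plus) for HSPB1, chr14:102087075-102087162 (minus) for HSP90AA1 and chr19:14518427-14518484 (minus) for DNAJB1.
HSPA1A: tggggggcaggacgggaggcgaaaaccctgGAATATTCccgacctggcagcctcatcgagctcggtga
HSPA1B: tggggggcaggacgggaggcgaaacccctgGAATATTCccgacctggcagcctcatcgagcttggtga
HSPB1: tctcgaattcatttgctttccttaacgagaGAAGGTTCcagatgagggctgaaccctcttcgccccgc
HSP90AA1: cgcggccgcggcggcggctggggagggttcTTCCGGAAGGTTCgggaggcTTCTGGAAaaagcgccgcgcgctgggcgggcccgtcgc
DNAJB1: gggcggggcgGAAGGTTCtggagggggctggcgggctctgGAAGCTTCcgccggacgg
The windows of HSPA1A and HSPA1B were identical at 66 of 68 bases. Of the genes with a match, HSPA1A, HSPA1B, HSPA8, HSPD1, HSP90AA1 and DNAJB1 rose at 8 h and HSPB1 fell. Of those without a match, HSPH1 rose and BAG3 fell. Whether the elements bear on these changes was not tested.

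**Figure D1:**
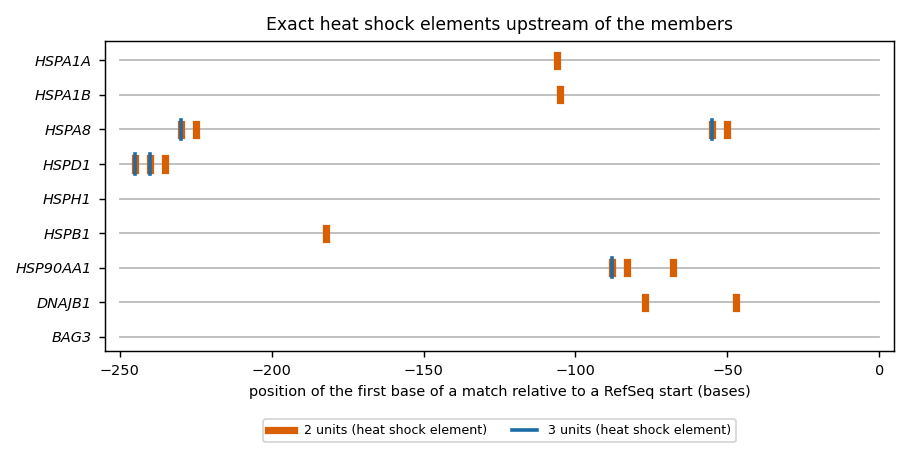
Position of exact heat shock elements in the 250 bases upstream of RefSeq starts, in bases relative to the start on the horizontal axis, with 1 line per gene. Wide orange marks are 2-unit matches and narrow blue marks 3-unit matches, and 7 of the 9 lines carry at least 1 mark.

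After 8 h of TEPA, HSF1 and 7 of the heat shock genes rose, and the small heat shock protein gene HSPB1 and the co-chaperone gene BAG3 fell. The inducible HSP70 genes rose most, 2.85-fold for HSPA1A and 2.36-fold for HSPA1B, and the other 6 rose by 1.12 to 1.37-fold. A gene was called at a Benjamini-Hochberg adjusted p under 0.05 in edgeR's quasi-likelihood test across all genes. By this rule 8 of the 10 were higher, where 25.2% of all tested genes were, and 2 were lower, where 24.5% were. Except for HSPA1A and HSPA1B, the 10 genes were all among the 1339 highest of the 16556 tested genes in untreated cells, by CPM. Small changes pass the test more readily at high counts, and the shares over all tested genes, here and below, were not matched for level. The 3 libraries at 8 h did not overlap with the 3 untreated libraries in CPM for any of the 10 genes, which was also the case for 57.8% of all tested genes. The median log2 fold change of the 10 genes was 0.31, against -0.0013 over all tested genes.

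After 24 h most of this was gone or turned around. Only HSP90AA1 was still called higher than in untreated cells (25.7% of all tested genes were higher), HSPA8, HSPD1, DNAJB1, HSPB1 and BAG3 were lower (26.8% of all genes), and HSF1, HSPA1A, HSPA1B and HSPH1 passed the test in neither direction. The groups did not overlap for 6 of the 10 genes, against 57.2% of all tested genes, and the median log2 fold change was -0.13, against 0.0023 over all genes. The share without overlap was thus close to that among all genes. Between the time points, 8 of the 10 were lower at 24 h than at 8 h, where 28.8% of all tested genes were lower, and none was higher, where 26.0% were. By an unadjusted p under 0.05, and with DESeq2, the count of genes higher at 24 h than at 8 h was also 0. The groups at 24 h and 8 h did not overlap for these 8 genes, as for 62.0% of all tested genes.

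**Figure D2:**
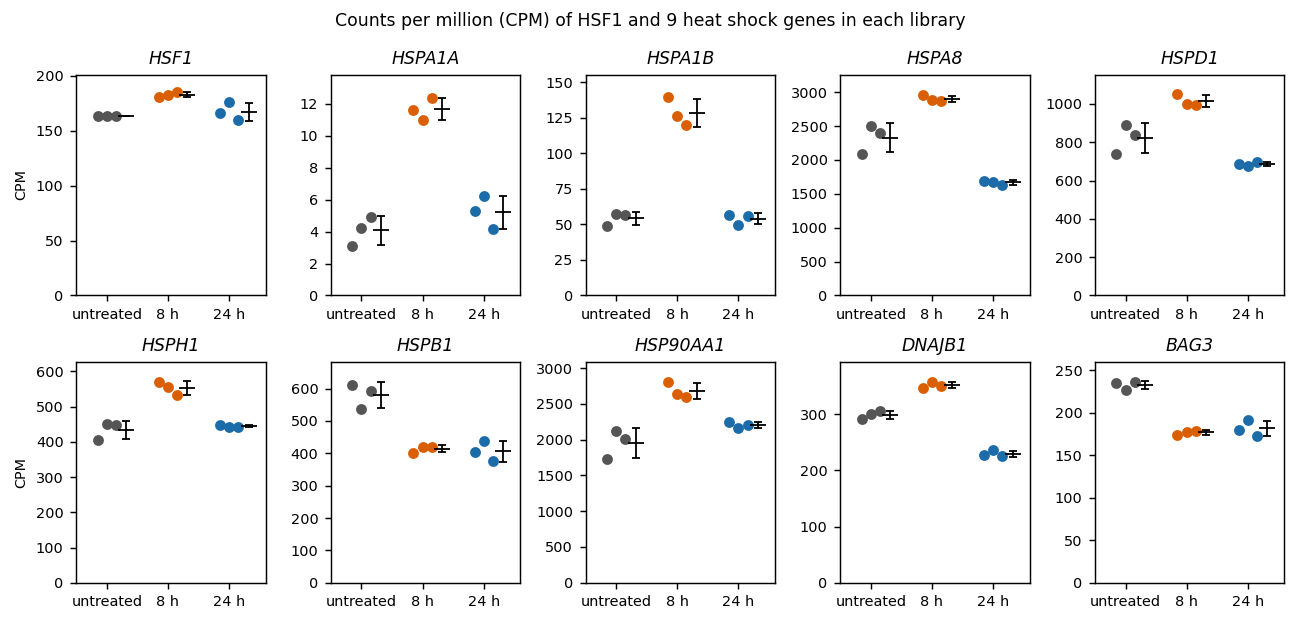
CPM on the vertical axis of each of the 10 genes in each library (points), with the mean and SD of the 3 libraries of a group beside them. Grey points are untreated, orange 8 h and blue 24 h libraries, every axis starts at 0, and the orange points of HSPA1A (11.01 to 12.4 CPM) and HSPA1B (119.8 to 139.5 CPM) lie far above the others.

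HSF1 (chr8:144291591-144314720, plus strand, hg38) had 164, 163 and 163 CPM in the untreated libraries, 181, 183 and 185 CPM at 8 h and 166, 176 and 159.8 CPM at 24 h. The 8 h libraries lay narrowly above all the others, and the 24 h libraries overlapped with the untreated ones. The rise at 8 h was small, with a log2 fold change of 0.16 ± 0.038 (SE; edgeR adjusted p = 0.0022). At 24 h the log2 fold change was 0.03 ± 0.038 (edgeR adjusted p = 0.48), with a 95% interval from -0.05 to 0.12, so that a change as large as that at 8 h lay outside the interval. The transcript was lower at 24 h than at 8 h by a log2 fold change of -0.13 (edgeR adjusted p = 0.0093).

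HSPA1A and HSPA1B encode the stress-inducible HSP70, the chaperone whose transcripts are the usual readout of HSF1 activity, and lie close together at chr6:31815543-31817946 and chr6:31827738-31830254 (plus strand, hg38). HSPA1A had 3.09, 4.22 and 4.92 CPM in untreated libraries, 11.6, 11.01 and 12.4 CPM at 8 h and 5.28, 6.21 and 4.14 CPM at 24 h. HSPA1B had 49.03, 57.1 and 56.9 CPM untreated, 139.5, 126 and 119.8 CPM at 8 h and 56.6, 49.9 and 55.8 CPM at 24 h. For both genes every 8 h library was at least 2 times the highest untreated library, and the 24 h libraries overlapped with the untreated ones. HSPA1A was counted 116, 193 and 194 times without TEPA and 466, 421 and 454 times at 8 h, the lowest depth among the 10 genes.

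The log2 fold changes at 8 h were 1.51 ± 0.14 (SE) for HSPA1A (edgeR adjusted p = 5.6e-07) and 1.24 ± 0.067 for HSPA1B (edgeR adjusted p = 2.0e-09). Counted from the highest, these were numbers 236 and 448 among the 16556 tested genes. At 24 h the log2 fold change of HSPA1B was -0.01, with a 95% interval from -0.15 to 0.14 (edgeR adjusted p = 0.93). That of HSPA1A was 0.36 ± 0.15 (edgeR adjusted p = 0.063), and the call turned with single libraries, being higher without untreated replicate 3 (0.50, edgeR adjusted p = 0.019) or without 24 h replicate 3 (0.48, edgeR adjusted p = 0.014). Between 8 h and 24 h both genes fell, by 1.15 (HSPA1A, edgeR adjusted p = 3.9e-06) and by 1.25 (HSPA1B, edgeR adjusted p = 9.6e-10) on the log2 scale.

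HSPA1A and HSPA1B share much of their transcript sequence. Of all stretches of 100 bases in the canonical transcript, 72.4% in HSPA1A and 72.8% in HSPA1B were also found in another annotated gene, mostly each in the other, and a long non-coding RNA without a symbol overlaps HSPA1B on its strand. The featureCounts settings named in the study's methods hold no option to count reads that align to several places, and by default such reads are left out. The level of each gene, that of their sum, and the share of HSPA1A in the summed counts (5.93 to 11.1% per library) are therefore uncertain. Summed, the pair had 52.1, 61.4 and 61.8 CPM in untreated libraries, 151, 137 and 132 CPM at 8 h and 61.9, 56.1 and 59.9 CPM at 24 h. The log2 fold change of the sum was 1.26 at 8 h and 0.02 at 24 h, on the reads that were counted. In the other 8 genes the share of such stretches was 0 to 6.05%, the highest in HSPB1.

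HSPA8 (chr11:123057489-123063230, minus strand, hg38) encodes the constitutive HSP70 of the cytosol, which folds new proteins and uncoats clathrin vesicles in unstressed cells. It had 2086, 2507 and 2390.3 CPM in untreated libraries, 2953, 2888 and 2865 CPM at 8 h and 1691, 1676 and 1634 CPM at 24 h. The 3 groups were fully apart, with 8 h the highest and 24 h the lowest. The log2 fold change was 0.32 ± 0.052 (SE) at 8 h (edgeR adjusted p = 1.2e-04) and -0.48 ± 0.052 at 24 h (edgeR adjusted p = 1.5e-06). From 8 h to 24 h the transcript fell by 0.80 on the log2 scale (edgeR adjusted p = 6.8e-09).

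HSPH1 (chr13:31134973-31162388, minus strand, hg38) encodes HSP110, which serves HSP70 as a nucleotide exchange factor. It had 404, 451 and 448 CPM untreated, 569.8, 556 and 531 CPM at 8 h and 449, 443 and 442 CPM at 24 h. All 8 h libraries were above the rest, and the 24 h libraries fell within the untreated range. HSPH1 had a log2 fold change of 0.35 ± 0.043 (SE) at 8 h (edgeR adjusted p = 8.2e-06) and 0.03 at 24 h (edgeR adjusted p = 0.52), with a 95% interval from -0.06 to 0.13. The fall from 8 h to 24 h was a log2 fold change of -0.31 (edgeR adjusted p = 1.7e-05).

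DNAJB1 (chr19:14514769-14560391, minus strand, hg38) encodes HSP40, the J-domain protein that delivers substrates to HSP70 and also takes part in silencing HSF1. It had 291, 301 and 305 CPM in untreated libraries, 347, 358 and 351 CPM at 8 h and 228, 236 and 226 CPM at 24 h. As with HSPA8, the groups did not overlap and their order was 8 h, untreated, 24 h. DNAJB1 had a log2 fold change of 0.24 ± 0.035 (SE) at 8 h (edgeR adjusted p = 4.1e-05), -0.38 ± 0.035 at 24 h (edgeR adjusted p = 2.5e-07) and -0.61 between the time points (edgeR adjusted p = 1.6e-09).

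BAG3 (chr10:119651380-119677819, plus strand, hg38) encodes a co-chaperone that releases nucleotide from HSP70 and routes its substrates to autophagy. It had 235, 227 and 236 CPM untreated, 174, 178 and 179 CPM at 8 h and 180.1, 191 and 173 CPM at 24 h. Every treated library was below every untreated one, and the 8 h and 24 h libraries overlapped. BAG3 fell by 0.39 at 8 h (edgeR adjusted p = 9.6e-07) and by 0.36 at 24 h (edgeR adjusted p = 1.8e-06) on the log2 scale. The log2 difference between the time points was 0.04, with a 95% interval from -0.05 to 0.12 (edgeR adjusted p = 0.46).

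HSP90AA1 (chr14:102080742-102139699, minus strand, hg38) encodes the inducible cytosolic HSP90, which matures kinases and steroid receptors and binds HSF1 itself. It had 1729, 2128 and 2008 CPM in untreated libraries, 2806, 2641 and 2602 CPM at 8 h and 2252, 2157 and 2209 CPM at 24 h. The 8 h libraries were clearly apart, whereas the lowest 24 h library was only just above the highest untreated one. The log2 fold change was 0.46 ± 0.058 (SE) at 8 h (edgeR adjusted p = 1.1e-05) and 0.17 ± 0.058 at 24 h (edgeR adjusted p = 0.020). At 24 h this call did not hold without untreated replicate 1, the lowest library (0.09, edgeR adjusted p = 0.053), and without 24 h replicate 1 (0.16, edgeR adjusted p = 0.074). From 8 h to 24 h the gene fell by 0.28 on the log2 scale (edgeR adjusted p = 7.0e-04).

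HSPD1 (chr2:197486584-197516737, minus strand, hg38) encodes HSP60, the chaperonin of the mitochondrial matrix. It had 737, 889 and 839 CPM untreated, 1049, 999.8 and 997 CPM at 8 h and 687, 674 and 696 CPM at 24 h. The groups were apart in the order 8 h, untreated, 24 h, with a wide spread among the untreated libraries. HSPD1 had a log2 fold change of 0.30 ± 0.053 (SE) at 8 h (edgeR adjusted p = 2.0e-04), -0.26 ± 0.053 at 24 h (edgeR adjusted p = 6.5e-04) and -0.57 between the time points (edgeR adjusted p = 2.9e-07).

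HSPB1 (chr7:76302673-76304295, plus strand, hg38) encodes HSP27, a small heat shock protein that holds unfolded proteins without ATP and binds the actin cytoskeleton. It had 611, 536 and 594 CPM in untreated libraries, 402, 421 and 421 CPM at 8 h and 403, 439 and 376 CPM at 24 h. All 6 treated libraries were below the 3 untreated ones, and the time points overlapped. HSPB1 fell by 0.49 at 8 h (SE 0.055, edgeR adjusted p = 3.4e-06) and by 0.52 at 24 h (SE 0.055, edgeR adjusted p = 1.3e-06) on the log2 scale. The log2 difference between the time points was -0.03, with a 95% interval from -0.15 to 0.09 (edgeR adjusted p = 0.68).

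**Figure D3:**
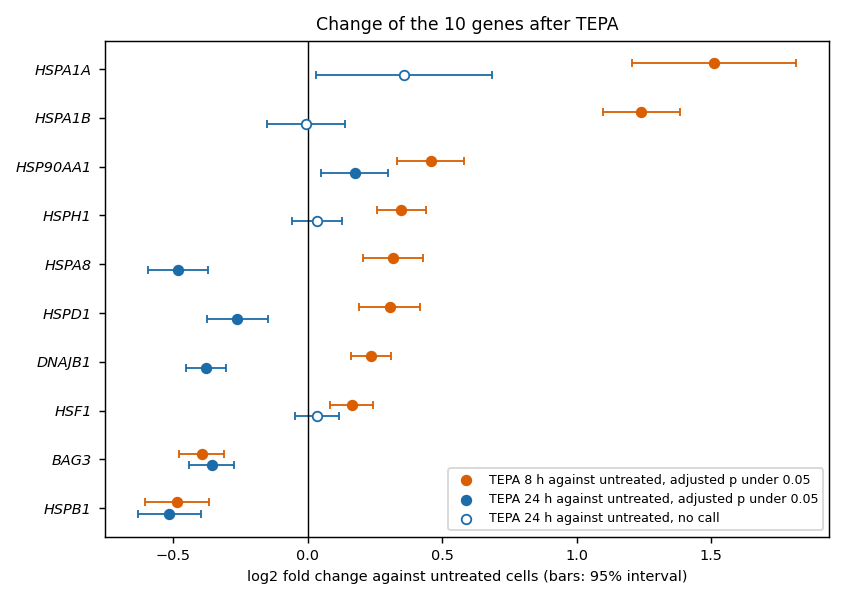
Log2 fold change against untreated cells on the horizontal axis for each of the 10 genes, at 8 h (orange) and 24 h (blue), with 95% intervals. Filled points passed an adjusted p under 0.05 and open points did not. The orange points run from -0.49 (HSPB1) to 1.51 (HSPA1A), and HSPA8, HSPD1 and DNAJB1 lie right of 0 at 8 h and left of 0 at 24 h.

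The genes thus fell into 3 descriptive patterns: HSF1, HSPA1A, HSPA1B and HSPH1 were higher at 8 h with no call at 24 h, HSPA8, HSPD1 and DNAJB1 rose at 8 h but were under the untreated level at 24 h, and HSPB1 and BAG3 were lower at both. HSP90AA1 stood beside these with a higher call at both times. Untreated replicate 1 had the lowest CPM of the untreated libraries for HSPA1A, HSPA1B, HSPA8, HSPD1, HSPH1, HSP90AA1 and DNAJB1, and the highest for HSPB1 and HSF1. Without it, all 10 calls at 8 h remained, with log2 fold changes of 0.24 for HSPA8 and 0.37 for HSP90AA1.

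Per length of the canonical transcript, the untreated cells had most HSPA8 (1028 ± 95.9 RPKM, which is CPM per kilobase, SD, n = 3), followed by HSPB1 (747 ± 50.7) and HSP90AA1 (606 ± 63.4). HSPD1 (366 ± 34.5 RPKM) and DNAJB1 (133 ± 3.23 RPKM) came next. BAG3 (90.8 ± 1.86), HSPH1 (82.8 ± 5.00) and HSF1 (76.6 ± 0.187) were close to each other, and HSPA1B (21.6 ± 1.83 RPKM) and HSPA1A (1.70 ± 0.384 RPKM) were the lowest. No neighbours in this order overlapped in the 3 untreated libraries, but the lowest HSPH1 library (77.0 RPKM) was barely above the highest HSF1 library (76.8 RPKM). Reads from all annotated exons of a gene were divided by the length of the canonical transcript alone. The order of BAG3, HSPH1 and HSF1 is therefore uncertain. By CPM, HSPA8 and HSP90AA1 were numbers 15 and 26 of the 16556 tested genes in untreated cells, whereas HSPA1A was number 11098. The low places of HSPA1A and HSPA1B hold only for the reads that were counted, since reads shared by both genes may be missing. The 10 genes together made up 0.629, 0.713 and 0.696% of all reads without TEPA, 0.848, 0.820 and 0.807% after 8 h and 0.632, 0.617 and 0.621% after 24 h, a sum carried mostly by HSPA8 and HSP90AA1. The 8 h libraries were the highest, and the 24 h libraries were near the lowest untreated one. CPM is a share of each library, and in bulk RNA fewer cells with a transcript and less of it per cell cannot be told apart.

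Around the 10 genes, other genes of the chaperone system were called in both directions. Of 86 such genes in 8 overlapping lists, 73 were tested. At 8 h, 20 were higher and 13 lower (median log2 fold change 0.05), and at 24 h 14 were higher and 34 lower (median -0.09). Read against 25.2 and 24.5% of all tested genes at 8 h, the counts at 8 h were near the background for higher genes and below it for lower ones, and at 24 h the lower count stood above the 26.8% of all genes. The lists were written with earlier results of these data known, so these counts are a description. The counts of the single lists that follow stand beside the same shares of all tested genes, 25.2% higher and 24.5% lower at 8 h and 25.7% higher and 26.8% lower at 24 h, and with 3 to 21 tested genes a list 1 call shifts a share by several percentage points.

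HSF1's own family and regulators (7 tested genes beside HSF1) had 3 higher and 1 lower at 8 h, and 2 higher and 0 lower at 24 h. HSF2, the paralogue that can pair with HSF1, did not pass the test at either time (log2 fold changes 0.06 and 0.10, edgeR adjusted p = 0.41 and 0.11). HSF4, a factor best known from the lens, had 8.58, 7.88 and 7.58 CPM untreated, 18.6, 19.2 and 19.5 CPM at 8 h and 11.6, 10.7 and 10.3 CPM at 24 h. Its groups did not overlap, and its log2 fold change of 1.25 at 8 h (edgeR adjusted p = 3.7e-09) was as large as that of HSPA1B, though an annotated gene without a symbol overlaps HSF4 on the same strand. HDAC6, a deacetylase that holds HSF1 in a complex with HSP90, rose by 0.52 at 8 h and 0.63 at 24 h on the log2 scale (edgeR adjusted p = 1.4e-07 and 8.8e-09).

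In the HSP70 and HSP110 family, 2 of the 11 other tested genes were higher and 4 lower at 8 h, and 3 were higher and 7 lower at 24 h. HSPA6, a strictly inducible HSP70 close to HSPA1A, was nearly silent, with 1.09, 1.31 and 1.29 CPM untreated and 1.67, 1.33 and 1.20 CPM at 8 h. Its groups overlapped at 8 h (log2 fold change 0.18, edgeR adjusted p = 0.50), unlike those of HSPA1A, and at 24 h it was lower with 0.687, 0.625 and 0.389 CPM (log2 fold change -1.09, edgeR adjusted p = 0.0011). HSPA5, the HSP70 of the endoplasmic reticulum, had 1028 CPM untreated and fell at both times, to means of 767 and 742 CPM (log2 fold changes -0.42 and -0.47, edgeR adjusted p = 3.0e-07 and 5.7e-08). HSPA9, the mitochondrial HSP70, did not pass the test at 8 h (0.10, edgeR adjusted p = 0.064) and was lower at 24 h (-0.26, edgeR adjusted p = 1.4e-04). HSPA4L, an HSP110 relative, rose at both times (0.51 and 0.71, edgeR adjusted p = 1.6e-06 and 3.1e-08).

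Among the HSP90 proteins and their co-chaperones, 7 of 14 other tested genes were higher and 1 lower at 8 h, against 2 higher and 7 lower at 24 h. HSP90AB1, the constitutive partner of HSP90AA1, rose at 8 h (log2 fold change 0.35, edgeR adjusted p = 2.4e-05) and had no call at 24 h (-0.11, edgeR adjusted p = 0.067), whereas HSP90B1 of the endoplasmic reticulum was lower at 8 h (-0.14, edgeR adjusted p = 0.0041). CDC37, which brings kinases to HSP90, and TRAP1, the mitochondrial HSP90, rose at 8 h (log2 fold changes 0.25 and 0.24, edgeR adjusted p = 4.1e-05 and 0.0010) and were lower at 24 h (-0.35 and -0.42, edgeR adjusted p = 1.1e-06 and 5.2e-06). FKBP4, a co-chaperone of steroid receptors, fell by 0.65 on the log2 scale at 24 h (edgeR adjusted p = 1.7e-08). The chaperonin list, which holds HSPE1 as the partner of HSPD1 and the subunits of the cytosolic TRiC complex, had 4 higher and 0 lower of 9 at 8 h, and 1 higher and 6 lower at 24 h. HSPE1 had log2 fold changes of 0.17 at 8 h (edgeR adjusted p = 0.0053) and -0.06 at 24 h (edgeR adjusted p = 0.26). CCT7, a TRiC subunit, was lower at 24 h by a log2 fold change of -0.57 (edgeR adjusted p = 7.1e-09), while TCP1 of the same complex was higher (0.22, edgeR adjusted p = 1.6e-04).

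Of the other J-domain genes, 3 of 11 were higher and 2 lower at 8 h, and 1 was higher and 4 lower at 24 h. The higher ones were DNAJB2, DNAJB4 and DNAJB12 at 8 h (log2 fold changes 0.26, 0.21 and 0.19) and DNAJB6 at 24 h (0.20). DNAJB9, a J-domain protein of the endoplasmic reticulum, fell at both times (log2 fold changes -0.62 and -0.63, edgeR adjusted p = 4.3e-05 and 3.0e-05). The partners of HSP70 in nucleotide exchange and folding (10 beside BAG3) had 1 higher and 1 lower at 8 h, and 1 higher and 5 lower at 24 h, with BAG1 at -0.42 (edgeR adjusted p = 1.0e-06). Only 3 of 9 other genes in the small heat shock protein list passed the filter, HSPB6, HSPB8 and HSPB11, the last of which was listed by its symbol only. Of these, 2 were lower at 8 h (HSPB8 and HSPB11), and 1 was higher (HSPB6) and 2 lower (HSPB8 and HSPB11) at 24 h. HSPB8, which works in a complex with BAG3, was among the lower ones at both times (log2 fold changes -0.38 and -0.73, edgeR adjusted p = 3.2e-05 and 2.7e-08).

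Known HSF1 target genes outside the 10 genes were also called in both directions. At 8 h their share of higher genes was near that of all genes (25.2%), and their share of lower genes was under it (24.5%). Of 21 tested targets beside the 10 genes, 5 were higher and 3 lower at 8 h (median log2 fold change 0.06), and 5 were higher and 11 lower at 24 h (median -0.11). With the targets among the 10 genes included, 12 of 30 were higher and 5 lower at 8 h, a higher share above that of all genes. At 24 h, 6 of these 30 were higher and 16 lower. Among the targets beside the 10 genes, HSPA4L rose at both times (log2 fold changes 0.51 and 0.71) and HSP90AB1 rose at 8 h (0.35). SERPINH1, the collagen chaperone HSP47, went the other way and fell by 0.60 at 8 h and by 1.36 at 24 h on the log2 scale (edgeR adjusted p = 9.5e-09 and 1.9e-12).

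**Figure D4:**
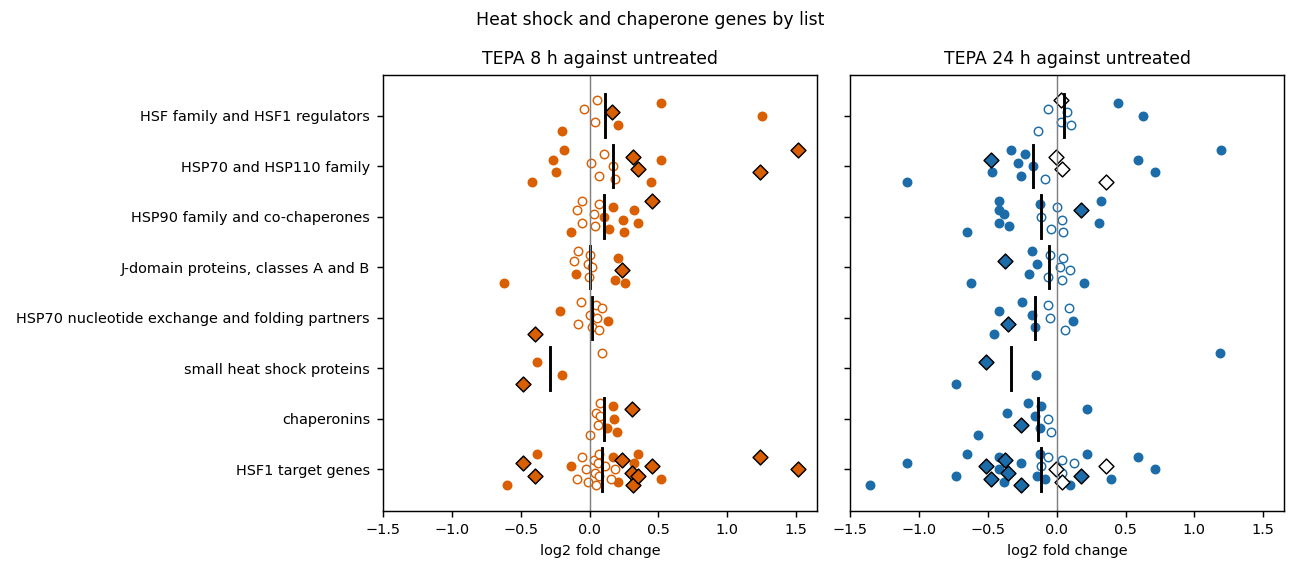
Log2 fold change of each tested gene (horizontal axis) by list (rows), at 8 h (left) and 24 h (right). Diamonds are the 10 genes and circles the others, filled symbols passed an adjusted p under 0.05, and the short black lines are list medians with the 10 genes included. At 8 h the diamonds of HSPA1A and HSPA1B lie beyond 1.2, where otherwise only HSF4 is found.

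As a description of pattern, log2 CPM over the 9 libraries was correlated with that of all genes with a mean of at least 100 counts. The 9 libraries form 3 groups, so that such values mainly record the order of the groups. For HSF1 the closest genes outside the lists were ATAT1, SOCS3, HLX, COG1 and QSOX1 (Pearson r from 0.983 to 0.977). HSPA1A was closest to ATXN2L, CHERP, SURF6, NXF1 and RAD54L (0.992 to 0.986), and the genes closest to DNAJB1 included AUP1, INTS11, TALDO1 and NUP205 (0.998 to 0.996). Among the 10 genes, DNAJB1 was most like HSPA8 (0.986) and HSF1 most like HSPA1A (0.939).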

How the data were processed

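The authors checked paired-end reads of stranded mRNA libraries with FastQC, aligned them to hg38 with HISAT2 and used featureCounts, in its stranded mode, to count exonic reads under each gene name. The deposited values are raw counts per library, without normalization, and no column was left out. From these counts, all 9 libraries were fitted with edgeR 4.0.16 in R 4.3.3 (TMM factors from 0.978 to 1.04, filterByExpr with a minimum count of 10, quasi-likelihood test, Benjamini-Hochberg adjustment over 16556 genes, which held 99.9% of the counts). The standard error of a log2 fold change is its size divided by the square root of F. The biological coefficient of variation was 0.0481. A permutation of 3 against 3 libraries could not give a p under 0.10. CPM uses TMM-scaled library sizes, and RPKM the canonical GENCODE transcript. Counts carry counting error at least. Shared stretches and gene positions came from GENCODE on hg38, and promoters from RefSeq.

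The 10 genes and the gene lists were chosen with earlier results of these data known. Named beside the 10 genes are their nearest relatives and, per list and comparison, up to 4 genes that changed most and that passed the test, averaged 100 counts or more and had groups that did not overlap. Not every gene that meets this rule is described. Alternatives were RLE and upper-quartile factors, other filters, DESeq2 1.42.0, the 2 compared groups alone, the replicate number as a block, a log2 limit of 0.5, the summed HSPA1 counts, and leaving out each library. Leaving out 37 mitochondrially encoded genes was chosen after seeing the data. A test of the procedure on simulated data is not reported here.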

Additional observations from a re-analysis of the deposited data

Results flagged for a closer look

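For 8 of the 10 genes the level at 24 h differed from that at 8 h, by the test of 24 h against 8 h itself. Both times share the untreated libraries, so this difference cannot be told apart from that of a longer time in culture. The log2 fold change at 24 h minus that at 8 h was -1.25 for HSPA1B, -1.15 for HSPA1A, -0.80 for HSPA8, -0.61 for DNAJB1, -0.57 for HSPD1, -0.31 for HSPH1, -0.28 for HSP90AA1 and -0.13 for HSF1. Every one of these was negative, and the 3 libraries at 24 h lay below the 3 at 8 h in each case. Of all tested genes, 28.8% were lower and 26.0% higher at 24 h than at 8 h, and the groups did not overlap for 62.0%.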

How the results depend on the processing

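All 10 calls at 8 h, and the 8 lower calls of 24 h against 8 h, were kept under every alternative tried except the log2 limit of 0.5, which left 2 higher and 0 lower of the 10 genes at 8 h, 0 higher and 1 lower at 24 h, and 5 lower at 24 h against 8 h. Over all genes this limit left 1673 higher and 1270 lower at 8 h, 1695 and 1400 at 24 h, and 1716 and 1789 between the times. The number of the 10 genes higher at 24 h was 2 with upper-quartile factors or without a filter, and 0 to 2 when single libraries were left out. Log2 fold changes near 0 changed sign. For HSPA1B at 24 h the value was 0.019 with upper-quartile factors, 0.0027 with at least 10 counts in every library, 0.021 with the HSPA1 counts summed, and -0.077 to 0.047 when single libraries were left out. Leave-one-out values were -0.016 to 0.0605 for HSPH1 and -0.0034 to 0.066 for HSF1 at 24 h, and -0.00084 to 0.070 for BAG3 and -0.088 to 0.025 for HSPB1 at 24 h against 8 h. The cause was not tested.

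No pairing by replicate number was visible: correlations of the deviations were -0.080 to 0.038 for same-numbered libraries and -0.054 to 0.073 for differently numbered ones. These values cannot show whether the cultures were handled in pairs. With the replicate number as a block, 8 of the 10 genes were higher and 2 lower at 8 h, and 1 was higher and 5 lower at 24 h, as without it. Depth limits HSPA1A most, with 116 counts in its lowest library.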
